A study of Mus musculus with 6 samples.

Results

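The subunits of the mitochondrial respiratory chain and ATP synthase that are encoded in the nucleus were followed in neural stem cells and progenitors of adult mice with and without active SIRT1. Members were chosen by gene symbol: the Nduf genes with a letter a, b, c, s or v and a number (complex I), Sdha to Sdhd (complex II), Cyc1 and the Uqcr genes (complex III), Cycs, Cox4 to Cox8 (complex IV) and Atp5 (complex V). A member had to be measured by an array probe set paired with it and no other gene, and where a gene had several such probe sets, the one with the highest mean over the 6 arrays was used. This gave 82 genes of the 19937 that had a single-gene probe set: 34 of complex I, 4 of complex II, 9 of complex III, 17 of complex IV, 17 of complex V, and Cycs. The choice used no difference between the groups. Control cultures carried floxed Sirt1 alleles and no Cre (Sirt1lox/lox, n = 3), and Sirt1 inactive cultures carried these alleles with Cre recombinase under the Nestin promoter, which is active in neural stem and progenitor cells (NestinCre;Sirt1lox/lox, n = 3). All cells came from 8-week-old mice of the 129SV strain, grew first as neurospheres with EGF and bFGF, and were collected while dividing at passage 2 after replating. The titles call the 3 cultures of a group biological replicates, and the sources used here do not state the number of mice behind a culture. Since the controls lack Cre, effects of Cre and of the loss of SIRT1 cannot be told apart.

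The respiratory chain passes electrons from NADH (at complex I) and succinate (at complex II) to ubiquinone, then through complex III and the small soluble protein cytochrome c to oxygen at complex IV. Complexes I, III and IV pump protons out of the matrix, and complex V, the ATP synthase, uses the returning protons to make ATP. Most subunits are nuclear genes, and the mitochondrial DNA encodes the others; the nuclear factors NRF1 and GABPA and the PGC-1 coactivators are known regulators of the nuclear set, and SIRT1 is an NAD-dependent deacetylase with PGC-1α among its substrates. Quiescent and early neural stem cells are known for a more glycolytic metabolism than their neuronal progeny.

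Upstream sequences show which of these regulators' core letters lie near the starts of the members whose values are described most closely below. RefSeq's promoter table for GRCm38.p6 held 67 of the 82 members, and the 250 bases before the first listed start were searched on both strands for 6 motifs, whose letters are spelled out below; matches of different motifs may share bases. Cycs (chr6:50566570-50566819, minus strand), Sdha (chr13:74350241-74350490, minus strand), Sdhd (chr9:50603850-50604099, minus strand) and Cox7a1 (chr7:30183921-30184170, plus strand) are shown from 5′ to 3′ in the direction of the gene, ending 1 base before the start, with matches to the NRF1, ETS, YY1, CREB and TATA letters in capitals.
Cycs: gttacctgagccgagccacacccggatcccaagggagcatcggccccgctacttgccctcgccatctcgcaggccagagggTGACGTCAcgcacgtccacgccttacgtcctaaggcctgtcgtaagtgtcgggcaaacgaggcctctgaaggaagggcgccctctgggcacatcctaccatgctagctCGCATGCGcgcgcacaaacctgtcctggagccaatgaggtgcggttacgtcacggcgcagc
Sdha: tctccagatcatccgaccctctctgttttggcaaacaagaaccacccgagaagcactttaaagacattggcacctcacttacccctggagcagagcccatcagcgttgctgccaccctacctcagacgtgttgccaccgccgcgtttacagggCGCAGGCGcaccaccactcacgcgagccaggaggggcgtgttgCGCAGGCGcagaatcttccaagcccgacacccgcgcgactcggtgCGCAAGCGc
Sdhd: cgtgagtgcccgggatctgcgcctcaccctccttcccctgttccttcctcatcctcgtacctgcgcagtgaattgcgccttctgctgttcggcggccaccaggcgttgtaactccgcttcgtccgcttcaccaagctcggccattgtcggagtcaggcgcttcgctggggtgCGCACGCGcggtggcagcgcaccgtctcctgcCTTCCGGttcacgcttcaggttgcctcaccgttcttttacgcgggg
Cox7a1: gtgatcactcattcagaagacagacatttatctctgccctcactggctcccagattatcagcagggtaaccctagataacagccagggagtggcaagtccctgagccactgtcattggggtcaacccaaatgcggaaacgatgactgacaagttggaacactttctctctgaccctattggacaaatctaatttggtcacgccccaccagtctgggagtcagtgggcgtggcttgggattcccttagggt
In Cycs the NRF1 match begins 61 bases and the CREB match 169 bases before the start. Sdha, the flavoprotein of complex II, holds 3 NRF1 matches, which begin 97, 54 and 9 bases before its start. Sdhd, a membrane anchor of complex II, has an NRF1 match 78 bases and an ETS match 46 bases before the start. Cox7a1, a subunit isoform known from heart and skeletal muscle, held none of the 6 motifs in this window. Over the members, 16 of 67 windows held the NRF1 letters, CGCANGCG (23.9%), against 10.2% of the windows of 15562 measured genes and 6.94% of all 27025 genes in the table. The letters CCGGAAG of ETS factors such as GABPA were in 16.4% of the members' windows and 9.63% of those of measured genes. For the CREB letters, TGACGTCA, these shares were 7.46% and 2.13%. The SP1 letters, GGGCGG, stood in 35.8% of member windows and 46.1% of those of measured genes, and the YY1 letters, AAGATGGC, in 0 of 67 and 1.61%. The TATA box, TATAAA, was found in 10.4% and 11.2% of them. By complex, the NRF1 letters stood in 7 of 31 windows of complex I, 2 of 3 of complex II, 0 of 5 of complex III, 1 of 12 of complex IV and 5 of 15 of complex V. These counts describe letters in a window and not binding.

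The values are log2 expression values made with RMA, a method that gives all arrays nearly the same distribution of brightness; array medians lay between 7.36 and 7.39. Sirt1 itself read 8.73, 8.78 and 8.55 in the control arrays and 8.26, 8.33 and 8.25 in the Sirt1 inactive arrays, a difference of -0.41 ± 0.076 (SE) on the log2 scale, with no overlap; whether its probe set lies inside the deleted part is not stated. Control 3 was the array least like the rest: the median over probe sets of its absolute distance to the mean of the other 5 was 0.117, and the next highest was 0.089, for Sirt1 inactive 2. Values without it stand beside the results it moved most. Of the stem and progenitor cell markers, 10 of 11 were measured, and each lay above the arrays' lower quartile (5.78 to 5.83), among them Sox2 at 11.70 in control and 11.63 in Sirt1 inactive cultures and Nes (nestin) at 11.65 and 11.64.

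No respiratory chain subunit passed the test between the groups. Differences are Sirt1 inactive minus control on the log2 scale, tested with limma over all 22961 probe sets with a gene and adjusted by the Benjamini-Hochberg method, with 0.05 as the threshold. By that rule 0 of 82 members were called, and 0% of all tested probe sets. The smallest adjusted p of any member was 0.96. Sirt1 itself was not called either (limma, unadjusted p = 0.0010, adjusted p = 0.96). At an unadjusted p under 0.05, 1 member was higher in Sirt1 inactive cultures (Cox7a1) where 0.984% of all tested probe sets were, and 0 members were lower where 2.63% were. The members' differences were small and mostly above 0. Their median was 0.036, or 1.02-fold, and 71 of 82 lay within 0.1 of 0, in a range from -0.16 for Cox8b to 0.29 for Cox7a1. Of the 82, 59 (72.0%) had a difference above 0, against 39.9% of all tested probe sets, whose median was -0.022. Among tested probe sets above the median brightness, where 81 of the members lie, the share was 46.4% and the median -0.0080. Most members lay well above that cut, so this set is not matched to them in level. With each array's median subtracted first, 69 of 82 members and 51.1% of all tested probe sets lay above 0. Without control 3, 61 of 82 members and 46.3% of all tested probe sets did. The 95% interval held 0 for 81 members and stayed within 0.3 of 0 for 71. The arrays of the groups did not overlap for 11 members in the higher direction (2.62% of all tested probe sets) and for 1, Ndufa6, in the lower (6.71%). These 11 were Cycs, Cyc1, Uqcrc2, Sdha, Sdhb, Cox7b and, of complex I, Ndufb2, Ndufb5, Ndufb6, Ndufs3 and Ndufv2.

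**Figure D1:**
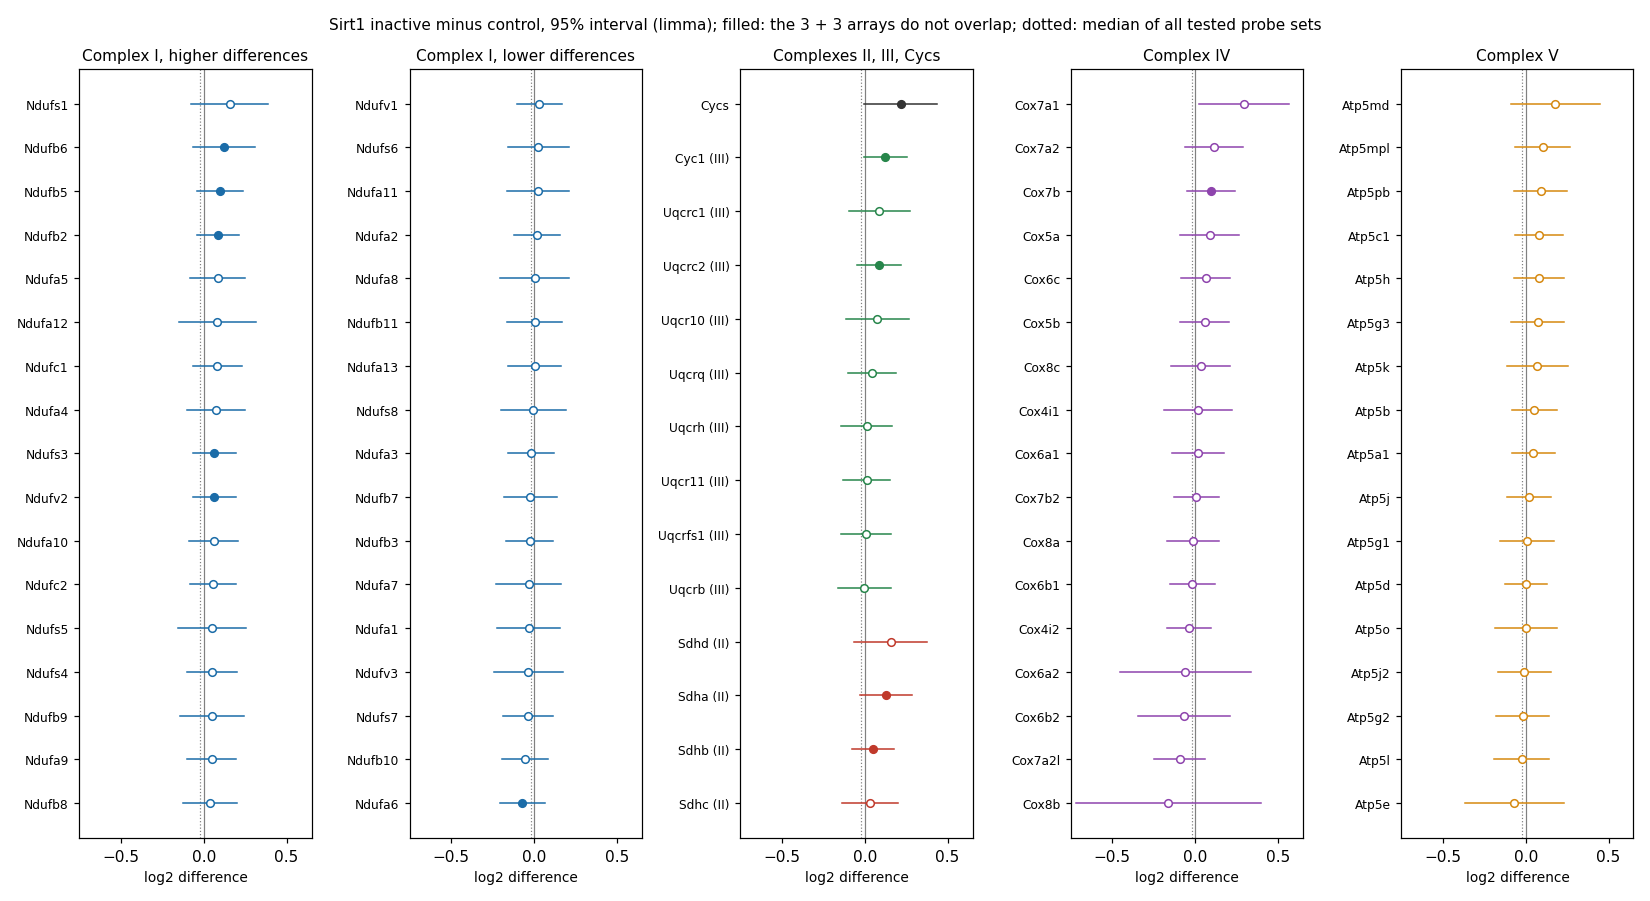
Difference in log2 expression, Sirt1 inactive minus control, for each of the 82 members (points) with limma's 95% interval (lines; 3 arrays a group), ordered by complex. Filled points mark the 12 members whose arrays do not overlap between the groups; only the interval of Cox7a1 does not hold 0, and those of Cox8b and Cox6a2 are the widest of complex IV.

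In limma's fit with the replicate number as a block, which compares same-numbered cultures, 4 members were under an unadjusted 0.05 in the higher direction, where 2.50% of all tested probe sets were. They were Cycs, Sdhd, Atp5md and Cox7a1, with an adjusted p of 0.66 each in that fit. The differences are the same in both fits.

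Complex I takes electrons from NADH through a flavin and a row of iron-sulfur clusters. Its 34 members had a median difference of 0.035, with 24 above 0 and 10 below, in a range from -0.071 to 0.16; leaving out 1 array gave medians from 0.0016 (without Sirt1 inactive 3) to 0.060 (without Sirt1 inactive 2). The 6 measured members of the catalytic core had a median of 0.047 and the 28 accessory members one of 0.032. Ndufs1, the largest iron-sulfur subunit of the core, read 10.24, 10.31 and 10.03 in the control arrays and 10.27, 10.50 and 10.28 in the Sirt1 inactive arrays. Control 3 was the lowest and Sirt1 inactive 2 the highest, and the groups overlapped; the difference was 0.16 ± 0.099 (SE; unadjusted p = 0.15, adjusted p = 0.96) and 0.077 without control 3. Ndufv2, an iron-sulfur subunit of the NADH-oxidising tip, read 11.87, 11.89 and 11.83 in the control arrays and 11.95, 11.93 and 11.90 in the Sirt1 inactive arrays. All Sirt1 inactive arrays were above all control arrays, by a mean of 0.063 ± 0.056. Ndufs3, a core subunit of the arm in the matrix, read 10.92, 10.89 and 10.87 in the control arrays and 10.98, 10.96 and 10.92 in the Sirt1 inactive arrays. These groups did not overlap either, with a difference of 0.064 ± 0.055. The other core members overlapped: Ndufv1, which binds the flavin, had a difference of 0.030, and Ndufs7 and Ndufs8, which carry the clusters next to ubiquinone, had -0.037 and -0.0053.

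Accessory subunits surround the core of complex I. Ndufb6 read 12.11, 12.13 and 11.88 in the control arrays and 12.17, 12.17 and 12.14 in the Sirt1 inactive arrays. Control 3 stood apart below the other 5 arrays, and the difference of 0.12 ± 0.079 was 0.042 without it. Ndufb5 read 11.22, 11.23 and 11.14 in the control arrays and 11.29, 11.26 and 11.34 in the Sirt1 inactive arrays. Its difference was 0.098 ± 0.059, with the Sirt1 inactive arrays all higher. Ndufb2 read 8.08, 8.03 and 8.02 in the control arrays and 8.14, 8.14 and 8.11 in the Sirt1 inactive arrays, again without overlap, with a difference of 0.086 ± 0.055. Ndufb2, Ndufb5 and Ndufb6 are all subunits of the membrane arm. Ndufa6, an accessory subunit of the arm in the matrix, was the member that lay lower without overlap, at 10.37, 10.38 and 10.36 in the control arrays and 10.24, 10.34 and 10.33 in the Sirt1 inactive arrays. Its difference was -0.071 ± 0.058, or 0.95-fold, with Sirt1 inactive 1 the lowest array. Ndufa4, counted here by its symbol but now known as a subunit of complex IV, had a difference of 0.072 (0.037 without control 3).

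Complex II is the succinate dehydrogenase of the citric acid cycle, and it is the complex whose subunits are all nuclear genes. All 4 members had a difference above 0, with a median of 0.089. Sdha, the flavoprotein, read 11.71, 11.75 and 11.59 in the control arrays and 11.76, 11.84 and 11.84 in the Sirt1 inactive arrays. The groups did not overlap, and the difference was 0.13 ± 0.067 or 1.09-fold (unadjusted p = 0.097, adjusted p = 0.96); without control 3, the lowest array, it was 0.079. Sdhb, the iron-sulfur subunit, read 10.31, 10.31 and 10.31 in the control arrays and 10.38, 10.32 and 10.36 in the Sirt1 inactive arrays. Its control arrays were nearly equal and lay below all Sirt1 inactive arrays, with a difference of 0.050 ± 0.054. Sdhd, one of the membrane anchors, read 10.80, 11.04 and 10.91 in the control arrays and 10.94, 11.20 and 11.08 in the Sirt1 inactive arrays. In each same-numbered pair the Sirt1 inactive array was the higher one, while the groups as such overlapped; the difference was 0.16 ± 0.094 and 0.15 without control 3. Sdhc, the other anchor, read 11.87, 11.74 and 11.79 in the control arrays and 11.91, 11.73 and 11.84 in the Sirt1 inactive arrays, with a difference of 0.029 ± 0.072. The median of complex II was 0.064 without control 3.

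Complex III passes electrons from ubiquinol to cytochrome c. Of its 9 members, 8 had a difference above 0, with a median of 0.045 and a range from -0.0018 for Uqcrb to 0.12 for Cyc1. The median was 0.025 without Sirt1 inactive 1 and 0.072 without Sirt1 inactive 2. Cyc1, cytochrome c1, read 11.53, 11.51 and 11.48 in the control arrays and 11.64, 11.59 and 11.65 in the Sirt1 inactive arrays. The lowest Sirt1 inactive array was above the highest control array by more than the range within either group, and the difference was 0.12 ± 0.055 or 1.09-fold (unadjusted p = 0.061, adjusted p = 0.96). Without control 3 it was 0.11. The core protein Uqcrc2 read 12.23, 12.23 and 12.15 in the control arrays and 12.31, 12.27 and 12.30 in the Sirt1 inactive arrays, without overlap, for a difference of 0.087 ± 0.057. Its partner Uqcrc1 had one of 0.089 ± 0.079 with overlap. Uqcrfs1, the Rieske iron-sulfur protein, which together with Cyc1 carries electrons in this complex, had a difference of 0.0079 ± 0.065. Among the small subunits, Uqcr10 had 0.076 (0.042 without control 3) and Uqcrb -0.0018.

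Cytochrome c, the product of Cycs, shuttles electrons from complex III to complex IV and is also known for its release from mitochondria in apoptosis. The probe set of Cycs read 12.26, 12.18 and 12.02 in the control arrays and 12.52, 12.32 and 12.27 in the Sirt1 inactive arrays. Control 3 was the lowest and Sirt1 inactive 1 the highest, and the groups did not overlap. The difference of 0.22 ± 0.094 or 1.16-fold was the second highest of the 82 (95% interval -0.0047 to 0.44; unadjusted p = 0.054, adjusted p = 0.96), and it was 0.15 without control 3. An exact two-sided permutation test gave p = 0.1 for Cycs, Cyc1, Sdha, Sdhb and Ndufa6, which is the smallest p that 3 against 3 arrays allow. Any member whose groups do not overlap gets this p, so for these genes it adds nothing to the lack of overlap. Cox7a1, whose groups overlap, had p = 0.2 in this permutation test.

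**Figure D2:**
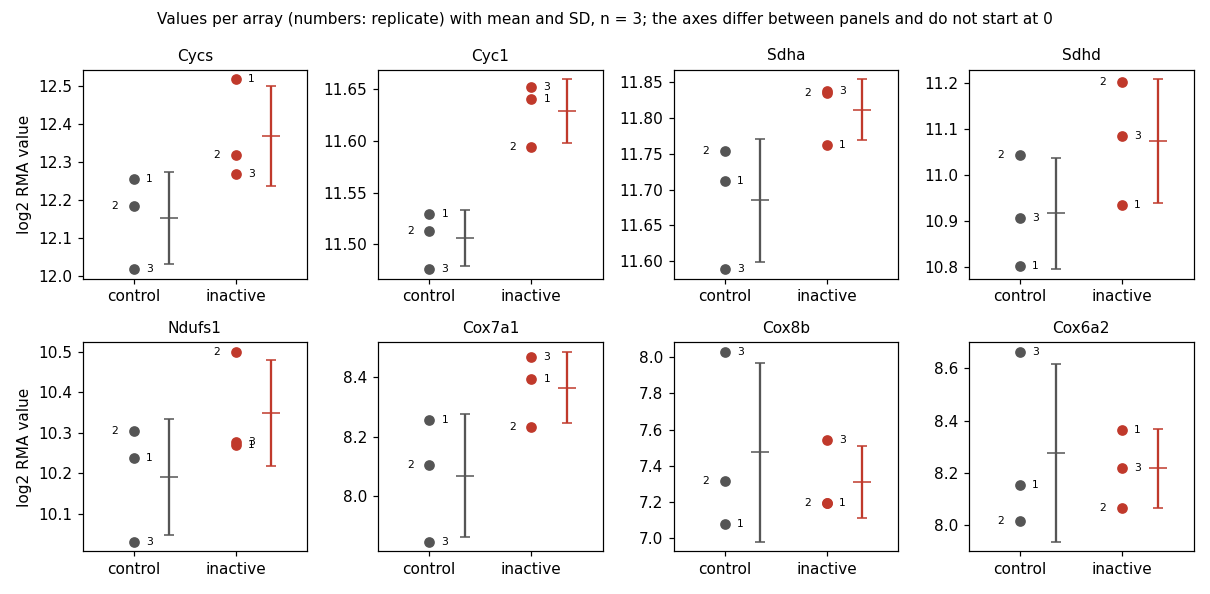
Log2 RMA value of 8 members in each array (points, numbered by replicate; grey control, red Sirt1 inactive), with mean and SD over 3 arrays beside them; each panel has its own axis, so levels are not compared between genes. Cycs, Cyc1 and Sdha do not overlap between the groups, while in Cox8b and Cox6a2 control 3 (8.03 and 8.66) lies above all other arrays.

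Cycs had 3 single-gene probe sets, and they did not read alike. Probe set 10462136 read 10.33, 10.26 and 9.93 in the control arrays and 10.67, 10.55 and 10.49 in the Sirt1 inactive arrays, with a difference of 0.40 ± 0.11 (unadjusted p = 0.0095, adjusted p = 0.96). Probe set 10544687 read 6.82, 6.97 and 7.07 in the control arrays and 6.95, 7.19 and 7.04 in the Sirt1 inactive arrays, with overlap and a difference of 0.10 ± 0.092. The numbers of the array's probe sets run along the chromosomes. For 97.2% of 21553 single-gene probe sets, the most frequent chromosome among the genes of the 20 nearest numbers was that of the named gene. Of the 3 for Cycs, only 10544687 lay among numbers of the gene's own chromosome. The same was looked up for every member. All 82 had a probe set among the numbers of their own chromosome, but for 10 the brighter one used here lay elsewhere: Atp5g2, Atp5l, Atp5md, Atp5pb, Cox6c, Cox7a2l, Cox7b, Cycs, Ndufa11 and Ndufb11. Which transcripts such probe sets bind, the gene's own or those of near-identical copies, was not tested. With the own-chromosome probe set for these 10, 58 members had a difference above 0, the median was 0.030, and the groups did not overlap for 10 members in place of 12; Cox7b had a difference of 0.030 and Atp5md one of 0.11.

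**Figure D3:**
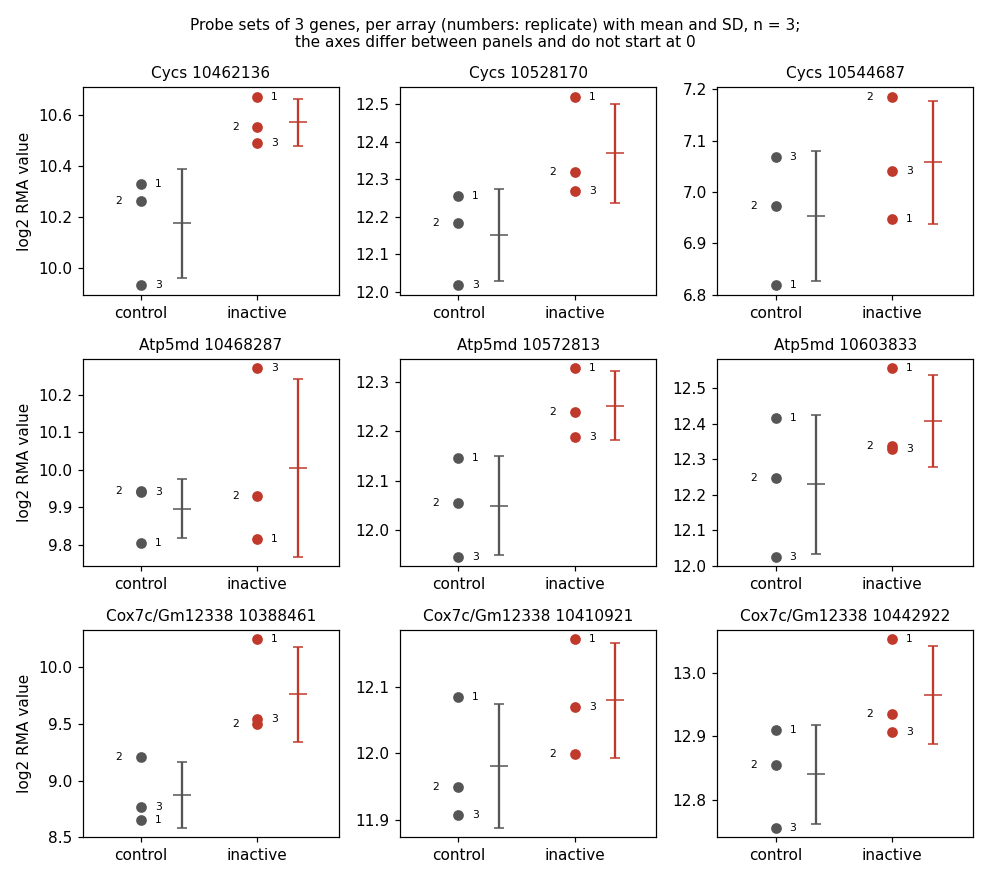
Log2 RMA value in each array (points, numbered by replicate; grey control, red Sirt1 inactive; mean and SD over 3 arrays beside them) for the probe sets of Cycs and Atp5md and for those paired with both Cox7c and Gm12338. The arrays do not overlap in 10462136 and 10528170 of Cycs, 10572813 of Atp5md and 10388461 of Cox7c and Gm12338; each panel has its own axis.

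Complex IV hands the electrons to oxygen, and several of its nuclear subunits exist as a general form and as isoforms of muscle, lung or testis. The 17 members had a median difference of 0.014, with 10 above 0 and 7 below. It was below 0 without Sirt1 inactive 1 (-0.015), Sirt1 inactive 3 (-0.014) or control 2 (-0.0089), and 0.058 without control 1. The 9 general subunits had a median of 0.056 with 7 above 0, and the 7 tissue-restricted isoforms one of -0.038 with 3 above 0. The difference between these sets was not tested, and it rests on control 3. Without control 3, the isoforms Cox7a1, Cox6a2, Cox8b, Cox8c, Cox7b2, Cox4i2 and Cox6b2 had 0.18, 0.13, 0.12, 0.027, 0.017, -0.020 and -0.17. The general Cox5a, Cox7b, Cox7a2, Cox5b, Cox6a1, Cox6c, Cox6b1, Cox8a and Cox4i1 then had 0.099, 0.057, 0.051, 0.036, 0.022, 0.022, 0.0030, -0.0092 and -0.014. Cox7a1, the heart and muscle form of subunit 7a, read 8.26, 8.11 and 7.85 in the control arrays and 8.39, 8.23 and 8.47 in the Sirt1 inactive arrays. Control 3 was the lowest array, and control 1 exceeded Sirt1 inactive 2, so the groups overlapped. The difference of 0.29 ± 0.12 or 1.23-fold was the highest of all members (95% interval 0.022 to 0.57; unadjusted p = 0.038, adjusted p = 0.96). Without control 3 it was 0.18, and 0 members then had an unadjusted p under 0.05; the same count was 0 without control 2 and without Sirt1 inactive 1. Cox7a2, the general form, read 11.10, 11.06 and 10.89 in the control arrays and 11.14, 11.07 and 11.17 in the Sirt1 inactive arrays, with overlap and a difference of 0.11 ± 0.074 (0.051 without control 3). The related Cox7a2l, known as a factor that joins complexes III and IV into supercomplexes, had a difference of -0.094 ± 0.065.

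In the other muscle isoforms of complex IV, control 3 was the highest array rather than the lowest. Cox8b, the muscle form of subunit 8, read 7.08, 7.32 and 8.03 in the control arrays and 7.20, 7.20 and 7.54 in the Sirt1 inactive arrays. Control 3 stood apart above the other 5 arrays, and the difference of -0.16 ± 0.24 was 0.12 without it. Cox6a2, the muscle form of subunit 6a, read 8.15, 8.02 and 8.66 in the control arrays and 8.37, 8.07 and 8.22 in the Sirt1 inactive arrays. Its difference was -0.060 ± 0.17 with control 3 and 0.13 without. The general forms Cox8a and Cox6a1 had -0.014 and 0.014. Cox4i2, the lung form of subunit 4, had -0.038, and the general Cox4i1 had 0.015. Of the testis forms, Cox6b2 read 9.04, 8.72 and 8.57 in the control arrays and 8.76, 8.65 and 8.71 in the Sirt1 inactive arrays, a difference of -0.070 ± 0.12 with control 1 the highest and -0.17 without control 3, against -0.018 for the general Cox6b1. Cox8c had 0.032. Cox7b2 lay between 4.93 and 5.03 on all arrays, under their lower quartile, with a difference of 0.0068, while the general Cox7b read 12.22, 12.22 and 12.11 in the control arrays and 12.30, 12.26 and 12.28 in the Sirt1 inactive arrays without overlap, a difference of 0.095 ± 0.060 (0.057 without control 3). RMA values do not show whether a probe set as dim as that of Cox7b2 stands above background.

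Complex V joins a catalytic F1 head in the matrix to a ring of c subunits in the membrane, held by a peripheral stalk. Its 17 members had a median difference of 0.045, with 12 above 0 and 5 below, and the groups overlapped in all 17. The median was 0.026 without control 3 and 0.028 without Sirt1 inactive 3. The 5 members of F1 had a median of 0.045, the 3 c subunit genes one of 0.0073, the 4 members of the stalk one of 0.051 and the 5 small membrane subunits one of 0.069. Atp5md, a small membrane subunit tied to dimers of the enzyme, read 12.42, 12.25 and 12.03 in the control arrays and 12.56, 12.34 and 12.33 in the Sirt1 inactive arrays. In each same-numbered pair the Sirt1 inactive array was higher, and the difference was 0.18 ± 0.11 (0.076 without control 3). A further probe set of Atp5md, 10572813, read 12.15, 12.06 and 11.95 in the control arrays and 12.33, 12.24 and 12.19 in the Sirt1 inactive arrays, without overlap, for a difference of 0.20 ± 0.075 (unadjusted p = 0.029, adjusted p = 0.96). Neither lies among numbers of the gene's own chromosome.

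In the F1 head, the γ subunit Atp5c1, the rotor that turns inside the head, read 12.21, 12.24 and 12.11 in the control arrays and 12.29, 12.28 and 12.23 in the Sirt1 inactive arrays, a difference of 0.080 ± 0.061 (0.044 without control 3). The catalytic β subunit Atp5b and the α subunit Atp5a1 had 0.051 and 0.045, and 0.026 and 0.030 without control 3. Atp5e, the ε subunit, read 9.48, 9.69 and 9.44 in the control arrays and 9.58, 9.20 and 9.62 in the Sirt1 inactive arrays. Sirt1 inactive 2 stood apart below the other 5 arrays, and the difference of -0.068 ± 0.13 was the lowest of complex V (-0.12 without control 3). It was above 0 without Sirt1 inactive 2 (0.065) or without control 2 (0.0080). Atp5pb, subunit b of the stalk, had 0.091 ± 0.068, and Atp5mpl, a small membrane subunit, 0.10 ± 0.072. Without control 3 these were 0.050 and 0.055. The own-chromosome probe set of Atp5pb, 10500990, had 0.014 ± 0.056. The c ring genes encode the same mature protein behind different import signals: Atp5g1 had a difference of 0.0073, Atp5g2 -0.019 and Atp5g3 0.072. For Atp5g2 the own-chromosome probe set, 10433049, had -0.18 ± 0.14, with overlap. Atp5g3 was higher in all 3 same-numbered pairs, and its difference was 0.038 without control 3.

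The members' values also differed between cultures of the same group. Each member's value was set against its own mean over the 6 arrays, and the median of these deviations over the members was -0.0021, -0.018 and -0.026 in control 1, 2 and 3 and 0.041, -0.020 and 0.042 in Sirt1 inactive 1, 2 and 3. Sirt1 inactive 2 thus lay with the controls. Of the 82 members, 32 had their lowest value in control 3 and 27 in Sirt1 inactive 2, while 25 had their highest in Sirt1 inactive 1 and 26 in Sirt1 inactive 3. Of all tested probe sets, 17.7% were lowest in control 3 and 22.4% in Sirt1 inactive 2 (24.6% and 20.3% above the median brightness). Of these 22961, 2390 were highest in Sirt1 inactive 1 and 2106 in Sirt1 inactive 3, while control 3 was highest most often, for 8551. For complex I the lowest array was most often Sirt1 inactive 2 (13 of 34), and for complex V control 3 (9 of 17). The median difference of all members was 0.062 without Sirt1 inactive 2 (68 above 0), 0.020 without Sirt1 inactive 1 (53 above 0), 0.021 without Sirt1 inactive 3 (49 above 0), 0.022 without control 2 (51 above 0) and 0.036 without control 3 (61 above 0).

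**Figure D4:**
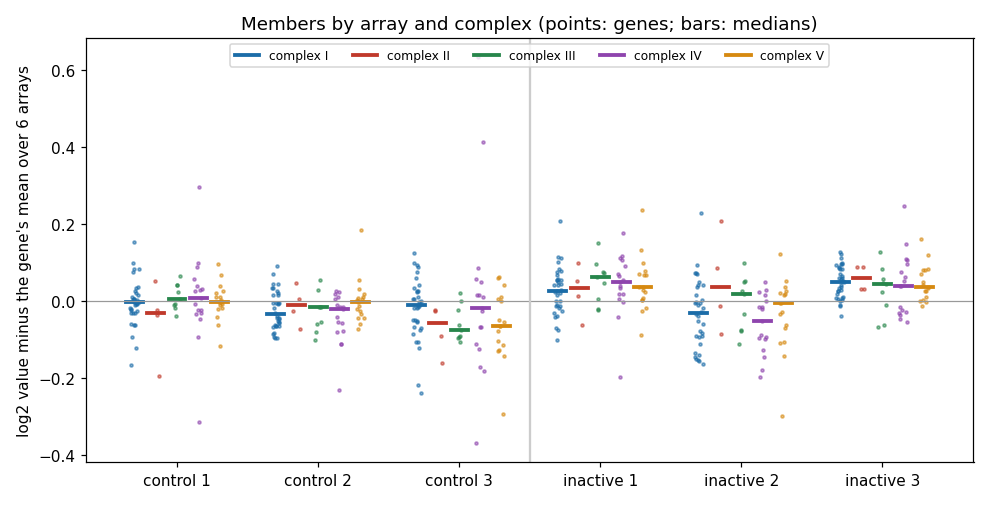
Each member's log2 value minus its own mean over the 6 arrays (points, spread sideways for sight) by array and complex, with the median of each complex as a bar. The medians of Sirt1 inactive 1 and 3 are above 0 for all 5 complexes, while in Sirt1 inactive 2 those of complexes I, IV and V are below 0, as in control 2 and 3.

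Other probe sets bear on the same complexes but lie outside the rule. The 25 further single-gene probe sets of 17 members had a median difference of 0.086, and 18 of 25 had the sign of the one used. Of all 107 single-gene probe sets of members, 24 lay among numbers of another chromosome, 10 of them among those used. Of these 24, 19 had a difference above 0, and which transcripts they bind was not tested. Cox7c, a general subunit of complex IV, was measured only together with its near-identical copy Gm12338, by 3 probe sets. One of them, 10388461, read 8.65, 9.20 and 8.77 in the control arrays and 10.25, 9.50 and 9.55 in the Sirt1 inactive arrays. Its groups did not overlap, and its difference was 0.89 ± 0.23 or 1.86-fold (unadjusted p = 0.0054, adjusted p = 0.96), which was singled out after its value was seen. The other probe sets of this pair had differences of 0.099 and 0.12, with overlap. Ndufab1, the acyl carrier protein of complex I, had -0.31 ± 0.14 in one probe set and 0.072 ± 0.064 in the other; the former had an unadjusted p above 0.05, and under it with the replicate block (adjusted p = 0.60). Atpif1, the inhibitor of ATP synthase, read 12.50, 12.37 and 12.46 in the control arrays and 12.39, 12.24 and 12.31 in the Sirt1 inactive arrays, a difference of -0.14 ± 0.068.

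Genes that work with the subunits were read from lists, and no gene of them passed the threshold over all probe sets. Of 13 subunits encoded in mitochondrial DNA, 2 were measured: mt-Co2, which receives electrons from cytochrome c in complex IV, had a difference of 0.12 (0.039 without control 3), and mt-Nd3 of complex I one of 0.079 (0.028). Assembly factors of the complexes had 43 of 48 measured, 32 of them above 0, with a median of 0.043; 3 had an unadjusted p under 0.05, all higher and without overlap, where 0.984% of all tested probe sets were higher at this p. With the replicate block there were 4, with Ndufaf5 added, where 2.50% were. The 3 of the fit without the block were Foxred1, Cox15 and Taco1, with a difference of 0.19 each. Foxred1 is needed to assemble complex I, Cox15 makes the heme of complex IV, and Taco1 activates translation of a mitochondrial subunit of complex IV. Of 19 citric acid cycle and pyruvate entry genes, which supply NADH and succinate, 17 were measured and 15 lay above 0, with a median of 0.093; without control 3 the median was 0.060. Dld, the dihydrolipoamide dehydrogenase shared by the pyruvate and 2-oxoglutarate dehydrogenase complexes, read 10.16, 10.30 and 10.05 in the control arrays and 10.36, 10.58 and 10.40 in the Sirt1 inactive arrays, a difference of 0.28 ± 0.092 without overlap (unadjusted p = 0.018, adjusted p = 0.96). Ogdh and Suclg2 had 0.15 and 0.16, the latter 0.081 without control 3. In this list too, control 3 was the lowest array most often, for 10 of 17 genes. Of 14 genes of ubiquinone synthesis and of enzymes that feed it, 13 were measured and 10 lay above 0, with a median of 0.055; Gpd2 and Etfa had 0.32 and 0.30, and 0.092 and 0.16 without control 3, and Coq5 had 0.13. None of these 13 had an unadjusted p under 0.05, and with the replicate block Etfa and Gpd2 did. All 6 measured carriers (of 7) lay above 0, with a median of 0.040; Vdac1, Slc25a3 and Vdac3 had 0.065, 0.061 and 0.047, and Slc25a3 0.039 without control 3.

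**Figure D5:**
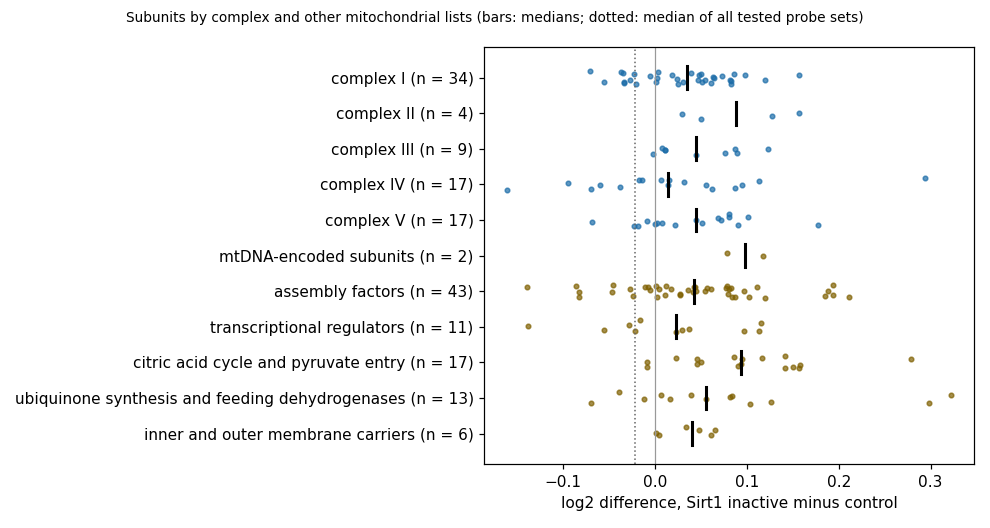
Log2 difference, Sirt1 inactive minus control, of each measured gene (points, spread vertically for sight) in complexes I to V (blue) and in 6 lists of related mitochondrial genes (brown), with the median of each as a bar. All medians are above 0, from 0.014 in complex IV to 0.098 for the 2 measured mtDNA-encoded subunits, while the median of all tested probe sets is -0.022.

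Markers of other cell types also read differently between the groups, and control 3 stood out in them, though none passed the threshold over all probe sets. In RNA from whole cultures, fewer cells of a type and less RNA per cell cannot be told apart. Of 10 neuroblast and neuron markers, 9 were measured and 8 were lower in Sirt1 inactive cultures, with a median difference of -0.31; the mean level of the list lay between 8.01 and 8.27 in control arrays and between 7.72 and 7.98 in Sirt1 inactive arrays, and 7 of 9 were highest in control 3. Without control 3 the median was -0.17, with 8 of 9 still below 0. Of 8 astrocyte markers, all were measured and 7 were higher, with a median of 0.21 and list means of 9.96 to 10.84 and 10.74 to 10.90; 6 were lowest in control 3. Without control 3, 4 of the 8 were above 0 and 4 below, with a median of 0.0099, and the difference of Gfap went from 1.06 to 0.29. In the oligodendrocyte lineage, 9 of 10 were measured, with a median of -0.097 (-0.050 without control 3) and list means of 9.45 to 9.61 and 9.58 to 9.80. Gpr17, Sox10 and Pdgfra were above 0, at 0.75, 0.28 and 0.79 (0.42 for Pdgfra without control 3). Mog, Mbp, Olig2, Cspg4, Mag and Olig1 were below 0, at -0.20, -0.16, -0.15, -0.12, -0.097 and -0.073, though Cspg4 was above 0 (0.11) without control 3. The lists for microglia, endothelium, mural cells and ependyma had medians of -0.088, -0.077, -0.013 and -0.054 (-0.052, -0.047, -0.12 and -0.075 without control 3), with list means between 6.98 and 8.29 on all arrays, and those for stem and progenitor cells one of 0.011. RMA values have no 0; of all these markers, only Lum of the mural list lay under the lower quartile on every array. The part of these cell types in the values of the respiratory chain subunits was not tested.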

How the data were processed

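The authors deposited a log2 value for each probe set on each array; per the submitters' processing notes the tool was RMA. The sources used here give neither its version nor the annotation's build. RMA evens out array-wide brightness and compresses differences of dim probe sets. The table has 34760 probe sets, paired by GEO's platform annotation with 1 gene (21640), several (1321) or none in the table used (11799), and 0 columns of other samples. No further normalization was applied. Arrays have no read depth, and their number limits the precision: the median SE of a log2 difference was 0.080.

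The 22961 probe sets with a gene were modelled with limma 3.58.1 on the 6 arrays (lmFit and eBayes, R 4.3.3), with genotype as the term, two-sided p-values, Benjamini-Hochberg adjustment and a threshold of 0.05; standard errors (SE) and 95% intervals are limma's. The fit was also run on simulated arrays with independent noise, in which the planted differences were larger than that of any member. That run therefore does not show how well differences as small as the members' are found. The p-values set a difference against limma's error term, which joins the spread between these cultures with that of all tested probe sets. Replicate numbers come from the titles. Same-numbered arrays deviated together, with correlations of 0.47, 0.36 and 0.27, so the fit with the number as a block is given where it moved a count. Lists are described by counts and medians, with no test.

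Members, lists and markers were chosen with earlier results of these data known. Named genes are, per complex, the 4 smallest unadjusted p-values, the highest and the lowest difference, the catalytic core, the isoform sets of complex IV and the c ring, and per list the 3 smallest p-values; Ndufa4, Ndufb10, Atp5a1, Atp5b, Nes and the genes outside the rule for members were added after their values were seen. Upstream sequences are RefSeq's for GRCm38.p6, matched by Entrez identifier, 1 start per gene. Alternatives were other scalings, filters, priors, array weights, probe set choices and leaving out each array.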

Additional observations from a re-analysis of the deposited data

How the results depend on the processing

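Under all 16 alternatives 0 of 82 members passed the threshold, the median of all members stayed above 0, and between 49 and 69 members had a difference above 0; 43 members kept their sign throughout, 39 above 0 and 4 below (Ndufa6, Ndufb10, Cox4i2 and Cox7a2l). The smallest adjusted p of a member was 0.51, for the block without both arrays of number 3, where 19 of all tested probe sets passed. With each array's median subtracted, 69 members and 51.1% of all tested probe sets lay above 0, the median of all members was 0.060 and that of complex II 0.113; complex II had 0.056 with the block and both arrays of number 3 left out. Leaving out 1 array at a time gave medians of 0.020 to 0.062 for all members, 0.0016 to 0.060 for complex I, 0.064 to 0.106 for complex II, 0.025 to 0.072 for complex III, -0.015 to 0.058 for complex IV and 0.026 to 0.064 for complex V. The median of complex IV was below 0 without Sirt1 inactive 1 (-0.015), without Sirt1 inactive 3 (-0.014) and without control 2 (-0.0089); the cause was not tested. Counts of an unadjusted p under 0.05 follow for members, with those of all 22961 tested probe sets, in either direction, in brackets. There was 1 member in the reported fit (830) and 4 with the replicate block (1741). Array medians subtracted (753) and an intensity trend and robust prior (800) gave 3, Cyc1, Cox7a1 and Cycs in both. A gene's probe sets averaged (697 of 19937) and leaving out control 1 (1453) gave 3, Cox7a1, Atp5md and Cycs in both. Array weights gave 2 (1244). The count was 0 without control 2 (1121), control 3 (646) or Sirt1 inactive 1 (817). Members whose groups did not overlap numbered 12 (14.6%, against 9.33% of all tested probe sets). Fewer arrays have to be apart with 1 left out. There were then 29 without Sirt1 inactive 2 (35.4% against 15.6%), 23 without control 1 (28.0% against 22.8%) and 21 without control 2 (25.6% against 21.7%). The count was 17 without Sirt1 inactive 3 (20.7% against 18.2%). The shares were nearly equal without control 3 (13 members, 15.9% against 15.7%) and without Sirt1 inactive 1 (17 members, 20.7% against 20.8%). With the block and both arrays of number 3 left out it was 18, a smaller share than the 27.3% of all tested probe sets. Renewed quantile normalization gave 8 (9.76% against 8.91%), and subtracted array medians 16 (19.5% against 8.81%). With the block, further list genes had an unadjusted p under 0.05 where they did not without it (Ndufaf5, Etfa, Gpd2 and 1 probe set of Ndufab1, and the markers Nr2e1, Pax6, Snap25, Elavl4, Aldoc, Gfap, P2ry12, Lum and Dcn), and the marker Col1a1 no longer did; 0 genes passed the threshold in either fit. Leaving out the 7 tissue-restricted isoforms of complex IV, and using the own-chromosome probe sets, were chosen after seeing the data; the first gave a median of 0.045 for the remaining 75 members.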

Other observations

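Assembly factors were read by complex, with no test between complexes. Those of complex I had 12 of 14 measured genes above 0 with a median of 0.044, and those of complex IV 12 of 16 with 0.046; complex V had 3 of 3 with 0.054, complex II 2 of 4 with 0.027 and complex III 3 of 6 with 0.0033. For 19 of the 43 factors the highest array was Sirt1 inactive 2, the array that was lowest for 27 of the 82 subunits. Foxred1 read 9.96, 9.93 and 9.83 in the control arrays and 10.11, 10.11 and 10.09 in the Sirt1 inactive arrays. Cox15 read 9.55, 9.57 and 9.48 in the control arrays and 9.73, 9.78 and 9.66 in the Sirt1 inactive arrays. Taco1 read 8.56, 8.72 and 8.74 in the control arrays and 8.87, 8.81 and 8.89 in the Sirt1 inactive arrays. None of the 3 passed the threshold over all probe sets (limma, adjusted p = 0.96 each).

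The regulators of the nuclear subunits gave no common direction: 6 of 11 had a difference above 0, with a median of 0.023. Tfam, which packs mitochondrial DNA, had 0.11 and 0.022 without control 3. Pprc1, a relative of PGC-1α, had 0.097, and the nuclear receptor Esrrb -0.14, with 0.025 without control 3. The 11 had 0 with an unadjusted p under 0.05.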
